A study of Homo sapiens with 2 samples.

Results

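The expression of 10 genes that set the balance between glycolysis and gluconeogenesis was examined in HCT116 cells, a human colorectal carcinoma line, under glucose deprivation. The genes were chosen by name. They encode the PFKFB enzymes (PFKFB1, PFKFB2, PFKFB3 and PFKFB4), the related phosphatase TIGAR, the gluconeogenic enzymes FBP1, PCK1 and PCK2, and G6PC3 and SLC37A4, which handle glucose 6-phosphate at the endoplasmic reticulum. All 10 are among the 17987 genes of the processed table, and 8 of them are among the 17054 genes that have a value. One library was made from cells after 24 h without glucose (0 mM) and the other from cells held in normal medium over the same time. The study reports significant death of HCT116 cells without glucose, and its part in the folds below was not tested. The sample labels give the genotype of both as wild type, whereas the table names both as HCT116 NC. In the study, NC cells are the controls set beside EZH2-knockdown cells, whose stable lines were selected with puromycin after lentiviral infection. The labels give no other treatment or allele.

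Glycolysis and gluconeogenesis share most of their steps and differ at a few that run one way only. Fructose 2,6-bisphosphate, made and degraded by the bifunctional PFKFB enzymes, activates phosphofructokinase-1, the committing enzyme of glycolysis, and inhibits fructose-1,6-bisphosphatase, the opposing enzyme encoded by FBP1. Phosphoenolpyruvate carboxykinase (PEPCK) turns oxaloacetate into phosphoenolpyruvate at the entry of gluconeogenesis, in the cytosol as PCK1 and in mitochondria as PCK2. Glucose is released from glucose 6-phosphate inside the endoplasmic reticulum, which the SLC37A4 transporter supplies. Liver and kidney are the organs that make glucose in this way, while tumour cells can use the first steps to draw glycolytic intermediates from amino acids.

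For each gene the table holds 1 log2 fold change, that of glucose deprivation relative to normal medium, and no level for either library, so the values of the single libraries and their depth cannot be shown, and no interval can be given. Neither condition was replicated, so no value below has a replicate check. The false discovery rate (FDR) quoted beside a fold comes from the Poisson test in the table and compares the reads of both libraries, not the conditions. A gene was called lower when its log2 fold change was under -0.75 and higher when its fold exceeded 1.2 (0.26 on the log2 scale), the sizes in the study's methods, and in both cases only if the FDR was 0.001 or less. The size asked of a decrease is larger than that asked of an increase, so the calls in both directions cannot be set against each other. Negative values were taken to mean a lower level without glucose. The column name puts the control before the deprived cells, and EZH2, which the study describes as lower, has a negative value. The median over all genes was -0.12, and the values ran from -8.14 to 9.23. The cell line could not be checked against its markers, because levels are lacking. Of 8 epithelial markers 7 had a value, of which the adhesion gene CDH1 was called higher at 1.45, the intestinal transcription factor CDX2 was called lower at -1.15 and the other 5, among them EPCAM at -0.0004, were called in neither direction. The fold of CDX2 was a ratio of whole numbers, 37 to 82. Of 5 markers of leukocytes, fibroblasts and endothelium 3 had a value, and none was called. For comparison with both sets of markers, 15.9% of all genes were called higher and 13.1% were called lower.

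Under glucose deprivation, PCK2 stood far above every other member and SLC37A4 was the lowest. PCK2 was called higher and SLC37A4 was called lower, and the other 6 members with a value were called in neither direction. PCK2 is 1 of 8 members (12.5%), against 15.9% of all genes called higher, and SLC37A4 is also 1 of 8 (12.5%), against 13.1% of all genes called lower. As a group the members were thus called about as often as any genes, and the median of the 8 was -0.10, close to the -0.12 of all genes. The 6 genes without a call ran from -0.42 to 0.17, from the 34.7th to the 67.05th percentile of all genes. The sizes asked of a call limit this range in part. The plot of the members shows this pattern.

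**Figure D1:**
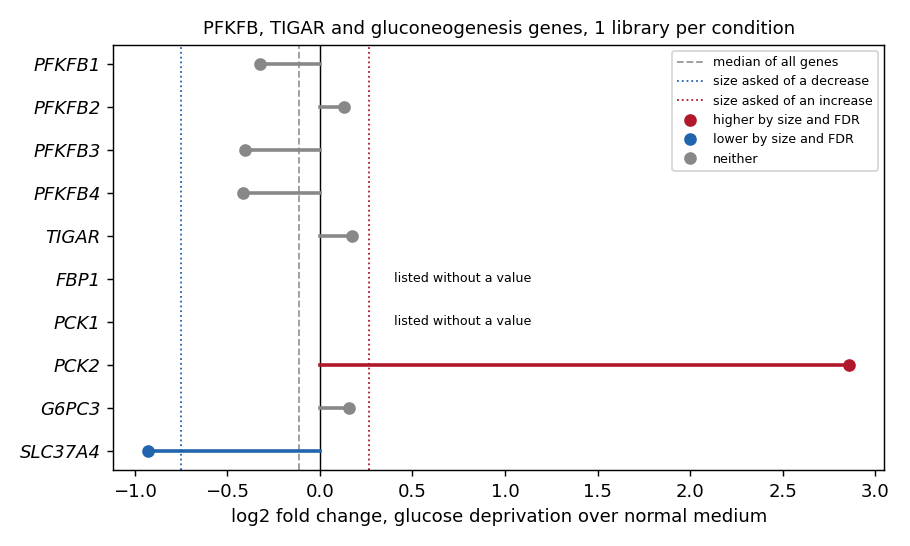
Log2 fold change (glucose deprivation over normal medium) of the members on the horizontal axis, 1 row per gene, with 1 library per condition and no error bar. PCK2 at 2.86 and SLC37A4 at -0.93 lie beyond the dotted lines that mark the sizes asked of a call, the other 6 genes with a value lie between them, and FBP1 and PCK1 are listed without a value.

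The promoters of the called members and of the PFKFB pair described next are shown, since they hold or lack short motifs of the factors that are known to act on these genes. Each is the 250 bases before a start site in RefSeq (GRCh38.p14), read 5′ to 3′ on the strand of the gene, with matches in capitals. The motifs searched on both strands were TGATGNAA (bound by ATF4 with C/EBP partners), ACGTG and GCGTG (bound by hypoxia-inducible factors) and CACGTG (the E-box, which contains ACGTG).
PCK2, chr14:24094061-24094310, plus strand: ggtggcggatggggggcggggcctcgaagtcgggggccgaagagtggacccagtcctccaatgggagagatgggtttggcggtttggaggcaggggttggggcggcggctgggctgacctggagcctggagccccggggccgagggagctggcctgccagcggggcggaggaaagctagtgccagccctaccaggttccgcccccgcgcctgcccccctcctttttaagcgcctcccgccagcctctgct
SLC37A4, chr11:119030878-119031127, minus strand: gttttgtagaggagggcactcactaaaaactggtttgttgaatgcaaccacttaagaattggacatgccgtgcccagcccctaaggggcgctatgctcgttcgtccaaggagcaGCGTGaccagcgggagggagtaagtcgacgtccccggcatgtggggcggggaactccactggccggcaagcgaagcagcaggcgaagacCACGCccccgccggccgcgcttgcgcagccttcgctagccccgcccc
PFKFB3, chr10:6202682-6202931, plus strand: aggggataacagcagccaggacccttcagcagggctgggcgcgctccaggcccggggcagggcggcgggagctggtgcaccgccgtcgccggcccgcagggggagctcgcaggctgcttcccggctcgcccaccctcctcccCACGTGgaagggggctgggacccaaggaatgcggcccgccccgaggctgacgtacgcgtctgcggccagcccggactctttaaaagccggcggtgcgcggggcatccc
PFKFB4, chr3:48556804-48557053, minus strand: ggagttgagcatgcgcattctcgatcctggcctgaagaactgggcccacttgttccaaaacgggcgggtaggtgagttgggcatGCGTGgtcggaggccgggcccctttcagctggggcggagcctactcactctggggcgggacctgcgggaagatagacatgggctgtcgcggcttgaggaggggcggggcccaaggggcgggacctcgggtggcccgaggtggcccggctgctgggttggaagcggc

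The RefSeq table held 13 such windows for 8 of the 10 members, PFKFB2 and PCK1 being without one. None of the 13 held TGATGNAA, which 3.14% of all 35116 windows held. ACGTG was found in 5 of the 13 windows, against 18.5% of all windows, GCGTG in 4, against 32.2%, and CACGTG in 4, against 6.35%. The 3 windows of G6PC3 overlap each other and make up 3 of the 4 with CACGTG, so these counts are not independent. The PCK2 window held none of the 4 motifs, which says only that these letters are not in this stretch. The SLC37A4 window shown held GCGTG at -136 and its reverse complement at -47 from the start site, and its other window held none of the motifs. In the PFKFB3 window shown, CACGTG began at -108, the other PFKFB3 window held the reverse complement of GCGTG at -168, and the PFKFB4 window held GCGTG at -166.

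Among the PFKFB genes, PFKFB3 and PFKFB4 had nearly the same negative value. PFKFB3, the isoform with the highest ratio of kinase to phosphatase activity and a known target of hypoxia-inducible factor, had a log2 fold change of -0.40 (FDR 4.01e-07), which is 75.7% of the level in normal medium. PFKFB4, another isoform induced by hypoxia in many tumour lines, had -0.42 (FDR 5.85e-08), or 74.9%. They differed by 0.015 on the log2 scale, and 128 of all genes lay between them. Neither reached the -0.75 asked of a decrease, but both had an FDR under 0.001. With a fold of 1.2 asked of decreases as well, a setting chosen after seeing the data, both were called lower together with SLC37A4, 3 of the 8 members against 25.6% of all genes. After centring on the median of all genes they stood at -0.29 and -0.30, still beyond the same size. The PFKFB pair thus lay below the middle of the table, at its 35.5th and 34.7th percentiles. Both values were close to -0.39, the median over all genes with an FDR of 0.001 or less.

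PFKFB2, the isoform best known from heart, had a log2 fold change of 0.13 (FDR 0.241), at the 64.8th percentile of all genes. PFKFB1, the isoform of liver and muscle, had -0.32 (FDR 0.525). Its fold was exactly 4 to 5 (relative tolerance 1e-07), a ratio of small whole numbers, as found for 55.5% of the genes with an FDR above 0.001 and for 9.10% of those at or under it (whole numbers up to 100). PFKFB1 was the only member with such a ratio, and its fold is coarse. TIGAR, which degrades fructose 2,6-bisphosphate, had 0.17 (FDR 0.0614). No PFKFB gene and not TIGAR was thus called in either direction.

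Phosphofructokinase-1 is the enzyme on which fructose 2,6-bisphosphate acts. Its subunits PFKL (-0.73, FDR 3.83e-63), PFKM (-0.62, FDR 3.98e-43) and PFKP (-0.34, FDR 9.83e-27) were all negative with an FDR under 0.001. None of these 3 reached -0.75, so none was called lower, against 13.1% of all genes. Their median was -0.62, against -0.39 over all genes with an FDR of 0.001 or less. At a fold of 1.2 all 3 were lower, against 25.6% of all genes. FBP1 is listed without a value. Its paralog FBP2, the isoform of muscle, had 0.80 with an FDR of 0.298, and its fold was the ratio 61 to 35. No fold can therefore be given for the enzyme that opposes phosphofructokinase-1 except that coarse one.

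PCK2 had a log2 fold change of 2.86, a level 7.24-fold higher under glucose deprivation, with an FDR listed as 0. Only 256 of all genes had a larger value, which puts PCK2 at the 98.5th percentile. It exceeded the next member, TIGAR, by 2.68 on the log2 scale. PCK1, the cytosolic form found mainly in liver and kidney, is listed without a value, so both forms cannot be compared. Of the enzymes on either side of PCK2, PC was called higher and ENO1 was called lower. PKM and another enolase gene, ENO2 (-0.29, FDR 1.18e-06), were called in neither direction. PC, pyruvate carboxylase, which supplies oxaloacetate in mitochondria, was called higher at 1.01 (FDR 2.59e-21). ENO1, the enolase that acts on phosphoenolpyruvate, was called lower at -0.89 (FDR listed as 0), and the pyruvate kinase gene PKM, which consumes it, stood at -0.59 (FDR listed as 0) without reaching the size.

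Of the 8 other genes of gluconeogenesis, 2 were called higher and none was called lower, and their median was 0.16. Over all genes, 15.9% were called higher and 13.1% were called lower. GOT1, the cytosolic aspartate aminotransferase, was called higher at 1.59 (FDR listed as 0), along with PC. The mitochondrial aminotransferase GOT2 (-0.48, FDR 1.13e-39) and the malate dehydrogenases MDH1 (-0.69, FDR 4.37e-68) and MDH2 (-0.54, FDR 1.64e-77) were negative without reaching -0.75. At a fold of 1.2 these 3 of the 8 were lower, against 25.6% of all genes. Coarse folds enter this median. Over the 5 genes that had an FDR of 0.001 or less it was -0.48, against -0.39 over all genes with such an FDR.

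At the endoplasmic reticulum, the transporter was called and the phosphatase was not. SLC37A4, the glucose 6-phosphate transporter that is defective in glycogen storage disease type I non-a, had a log2 fold change of -0.93 (FDR 2.27e-43), a level of 52.6% of that in normal medium. After centring it stood at -0.81 and was still called lower. Of all genes, 82.2% had a higher value. With a size of 1 in both directions SLC37A4 was no longer called. G6PC3, the phosphatase subunit present in most tissues, had 0.16 (FDR 0.0432), so that SLC37A4 lay 1.09 below it on the log2 scale, with 8281 of all genes between them. G6PC1, the catalytic subunit of liver and kidney (G6PC in the table), had 1.53 with an FDR of 0.00119, just above the threshold, and its fold was the ratio 49 to 17. G6PC2, the isoform of pancreatic islets, had -2.58 with an FDR of 0.603, and its fold was the ratio 1 to 6. Of the 3 catalytic paralogs FBP2, G6PC1 and G6PC2 none was called, against 15.9% of all genes called higher and 13.1% called lower. Their median of 0.80 is the value of FBP2, and none of these 3 had an FDR of 0.001 or less. H6PD, which oxidises the glucose 6-phosphate that SLC37A4 brings into the lumen, was called higher at 0.79 (FDR 1.27e-35). The steps around the members are compared in the plot of neighbouring enzymes.

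**Figure D2:**
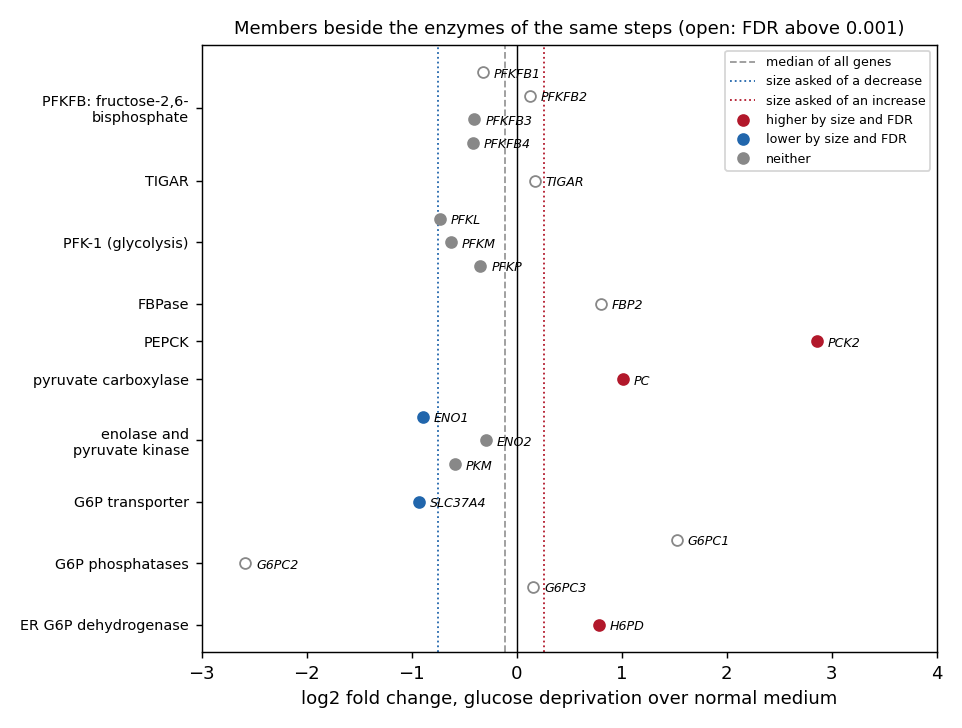
Log2 fold change (glucose deprivation over normal medium) of the members and of enzymes at the same or neighbouring steps, grouped by step, with filled points for an FDR of at most 0.001 and open points above it. PCK2 (2.86), PC (1.01) and H6PD (0.79) are called higher, ENO1 (-0.89) and SLC37A4 (-0.93) are called lower, and the open points of FBP2, G6PC1 and G6PC2 have whole-number ratios as folds.

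The members were next set beside genes that share a known regulator or a pathway. These lists are descriptions, chosen with results known, and no likeness of patterns can be measured with 1 value per gene. PCK2 is a known target of ATF4, the transcription factor of the amino acid response. Of 12 other ATF4 targets, 11 were called higher, against 15.9% of all genes, and none was called lower, with a median of 2.80. PCK2 lay among them, with 5 above it, namely DDIT3 (5.88), NUPR1 (5.42), CHAC1 (4.02), ATF3 (3.70) and TRIB3 (3.68). The remaining 7 lay below PCK2, of which VLDLR, at -1.32 with an FDR of 0.753, was the only one without a call. The fold of VLDLR was the coarse ratio 2 to 5. The mRNA of ATF4 itself was called higher at 0.99.

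PFKFB3 and PFKFB4 are on the list of hypoxia-inducible factor targets, which was divided. Of its 11 genes 4 were called higher, against 15.9% of all genes, and 1 was called lower, against 13.1%. Its median was -0.24. The higher ones were the growth factor gene VEGFA (2.46), ANKRD37 (1.96, the ratio 66 to 17), NDRG1 (1.67) and the glucose transporter SLC2A1 (0.48). The lower one was the peptide hormone gene ADM (-0.78), which after centring stood at -0.66 and was no longer called. At a fold of 1.2 in both directions 4 of the 11 were lower, PFKFB3 and PFKFB4 among them, against 25.6% of all genes. EGLN3 (-0.745, FDR 1.29e-06), a prolyl hydroxylase, lay just short of the size asked of a decrease. HIF1A stood at 0.21 (FDR 1.9e-11) and did not reach the size asked of an increase, while EPAS1 was called higher at 0.50. Of the 9 regulators examined, 4 were called higher and none was called lower, with a median of 0.21. Besides ATF4 and EPAS1, CREB1 (0.64) and MLXIPL (0.55), both regulators of genes of glucose metabolism, were called higher. PPARGC1A, a coactivator of gluconeogenic genes in liver, had -1.58 with an FDR of 0.613, and its fold was the coarse ratio 1 to 3. FOXO1 had -0.33 with an FDR of 0.0215. MLXIP, the paralog of MLXIPL, had -0.48 (FDR 1.12e-20) and MYC had -0.47 (FDR 1.41e-63), and both were lower with a fold of 1.2 asked of decreases as well.

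Over all genes, 15.9% were called higher, 13.1% were called lower, and 25.6% were lower at a fold of 1.2. Of 10 genes of glucose uptake and upper glycolysis, 3 were called higher and none was called lower, with a median of -0.41. The higher ones were the transporters SLC2A3 (1.75) and SLC2A1 and the hexokinase HK2 (1.44). This list includes the phosphofructokinase-1 subunits and the aldolases that follow them, and with a fold of 1.2 asked of decreases as well 6 of its genes were lower. Of 10 genes of lower glycolysis, 5 were called lower and none was called higher, with a median of -0.76. Largest were the decreases of PGAM1 (-1.38), the lactate dehydrogenase gene LDHA (-1.28), TPI1 (-1.16) and ENO1, and 8 were lower at a fold of 1.2. After centring PGK1, another of the 5, stood at -0.73 and was no longer called. Of 8 genes of the pentose phosphate pathway, 2 were called higher, H6PD and PGLS (0.65), and none was called lower. At a fold of 1.2, 3 were lower. Their median was -0.11, and it was -0.41 over the 5 genes that had an FDR of 0.001 or less, against -0.39 over all genes with such an FDR. The plot of the lists shows the members beside their neighbours.

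**Figure D3:**
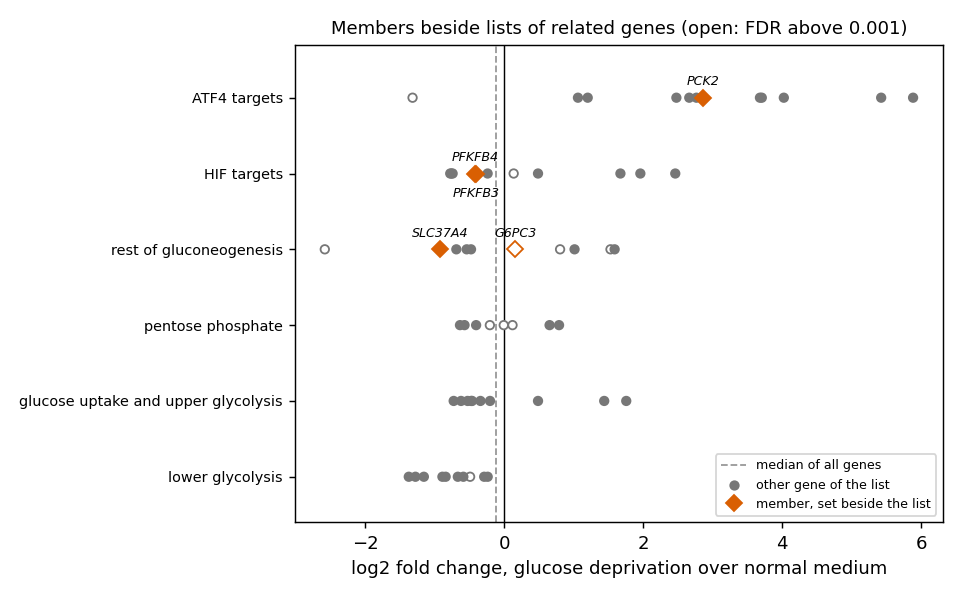
Log2 fold change (glucose deprivation over normal medium) of the genes of 6 lists, 1 row per list, with circles for the genes of a list and diamonds for the members set beside it, open where the FDR is above 0.001. PCK2 (2.86) lies within the ATF4 targets, and PFKFB3 and PFKFB4 lie on the negative side of a divided list.

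Some members overlap other genes, and the sources used here do not say that reads were counted by strand, so that reads of such partners may not be told apart. SLC37A4 overlaps exons of TRAPPC4, which lies on the opposite strand and had -0.64 (FDR 3.53e-09). PCK2 lies opposite NRL (0.84, FDR 0.00597) with no overlap of exons. PFKFB2 overlaps exons of YOD1 on the opposite strand (-0.44, FDR 3.64e-06), and PFKFB4 shares exon sequence with UCN2 on its own strand (1.43, FDR 0.00682). TIGAR overlaps exons of the protein-coding gene AC008012.1 on its own strand and of the pseudogene AC006122.1, and FBP1 overlaps exons of the antisense gene PCAT7. PFKFB3 overlaps only noncoding genes, with no overlap of exons. PFKFB1, PCK1 and G6PC3 overlap no other annotated gene, and the part of any overlap in the folds above was not tested.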

How the data were processed

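RNA-Seq was performed on 1 library of HCT116 cells in normal medium and 1 of glucose-deprived cells, both after 24 h. The study's methods name Bowtie, RSEM and the mouse build mm10, while Bowtie2, BWA and the human build hg19 appear in the submitters' processing notes. Versions are not given in the sources used here, and the gene IDs are human. The deposited table consists of the authors' own comparison and holds no expression level, so these columns were used directly and no fold was recomputed. The deposited log2 fold change per gene is glucose deprivation over normal medium. The deposited p-value comes from the authors' Poisson test of the reads of both libraries. The deposited FDR was kept as a score, since it exceeds 1 for 501 genes and reaches 1.03. The 933 genes without a value entered no count. No column of another sample was used, and depth is unknown.

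Calls asked for a log2 fold change under -0.75 (lower) or a fold over 1.2, which is 0.26 on the log2 scale (higher), together with an FDR of 0.001 or less. Alternatives were size alone, 0.75 and 1 on the log2 scale in both directions, centring on the median of all genes, list medians restricted by the same FDR and, chosen after seeing the data, a fold of 1.2 in both directions. All 10 members were named, with the called genes of largest change in each list and the enzymes of neighbouring steps. The members and all lists were chosen with earlier results of these data known. Some results of the planned lists are not reported here. The 11 lists include 8 epithelial and 5 other cell type markers. Promoter sequences were taken from RefSeq (GRCh38.p14), and overlapping genes from GENCODE v29 by name only. The counting was tested on simulated data. Python 3.11.15, numpy 2.4.6, pandas 2.3.3 and matplotlib 3.10.9 were used.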

Additional observations from a re-analysis of the deposited data

How the results depend on the processing

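PCK2 was called higher and SLC37A4 lower with size alone, with 0.75 on the log2 scale in both directions and after centring. With 1 on the log2 scale in both directions PCK2 was still called and the number of lower members was 0, and with a fold of 1.2 in both directions, chosen after seeing the data, it was 3. Over all genes, 2231 were lower and 2706 higher, and size alone gave 3811 and 4938. With 0.75 in both directions 1169 were higher, with 1 in both directions 1465 were lower and 786 higher, and with a fold of 1.2 in both directions 4363 were lower. Of the pathway list genes 6 were lower, against 10 by size alone, 4 after centring, 3 with a size of 1 and 26 with a fold of 1.2. Of the same genes 25 were higher, against 27 by size alone, 26 after centring, 20 with a size of 0.75 and 18 with a size of 1. These numbers follow from the sizes and the FDR asked for. Centring adds 0.12 to every gene, which turned the median of the pentose phosphate list to 0.0062. When list medians were restricted by the FDR, the median of the remaining gluconeogenesis genes became -0.48, because 3 genes with coarse folds were left out. That of the pentose phosphate list became -0.41 and that of the regulators 0.50, while the median over all genes with such an FDR was -0.39. The planned pseudocount could not be applied to a table without levels. No paired analysis was possible because neither condition was replicated. The effect of depth, which is unknown, on PFKFB1 or on the genes without a value could not be given.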
